A study of Mus musculus with 72 samples.

Results

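The regions described here are the chromatin sites of mouse embryonic stem cells (ESCs) at which peaks of OCT4, SOX2 and NANOG lay in the same place. A site was taken as an OCT4 peak of the first wild-type library that overlapped, by at least 1 bp, an OCT4 peak of the second wild-type library, a SOX2 peak of both wild-type libraries and a NANOG peak of both. Of 11140 OCT4 peaks in the first library, 3604 (32.4%) met the rule. The wild-type (WT) cells carried Hmgn1+/+n2+/+, and the double knockout (DKO) cells were Hmgn1-/-n2-/-, lacking both nucleosome-binding proteins HMGN1 and HMGN2. Both came from C57BL/6 mice. The comparison asks whether the loss of the 2 HMGN proteins alters where these factors sit on chromatin.

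The series holds 72 samples of ESCs, embryonic fibroblasts and resting B cells, of which 64 have a peak list. The 20 ESC lists come from ChIP-seq, sequencing of the DNA fragments that co-precipitate with a protein, with antibodies to 5 factors in 2 genotypes and 2 replicates of each. The labels give no age, and they do not say whether the 2 replicates of a genotype were separate ESC lines or cultures of 1 line, so the p-values measure only the spread between these libraries. A peak list carries no measurement of Hmgn1 or Hmgn2 transcripts, and the genotype labels were not checked. The list lengths differed between genotypes: OCT4 had 11140 and 12627 peaks in WT against 26742 and 30864 in DKO, SOX2 10324 and 10222 against 16174 and 17144, NANOG 52307 and 53524 against 62697 and 64486, Klf4 5545 and 4003 against 4859 and 5924, and CTCF 62069 and 62772 against 64629 and 64634.

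OCT4 (encoded by Pou5f1) binds DNA through a POU domain, which reads the octamer, and SOX2 through an HMG box, which reads a short SOX core. The pair can sit side by side on a composite element in enhancers of pluripotency genes. NANOG is a homeodomain factor that joins them at many of these enhancers, and the trio maintains the self-renewal of ESCs, in part by binding near its own genes. Klf4 is a zinc finger factor of the same network that reads a C-rich KLF motif. CTCF is a zinc finger protein of insulators and chromatin loops and served here as a factor outside the network.

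The sequences around the OCT4 summits show which of these elements the sites held. A summit is the base at which a peak is highest. All windows below are the plus strand of mm9, 60 bases to each side of the summit in WT replicate 1, written from 5′ to 3′. The following 4 sites held a composite, spelled as CATTGT or CTTTGT followed on the same strand, after 0 to 3 bases, by ATGCNAA or ATGCANA, and the capitals mark it. They are shown because the element lay within 60 bases of the summit at Nanog and Sox2 themselves, and because the Lrrtm3 and Rgma sites were among the composite sites with the highest fold enrichment.
Nanog, 77 bp upstream (chr6:122657370-122657490): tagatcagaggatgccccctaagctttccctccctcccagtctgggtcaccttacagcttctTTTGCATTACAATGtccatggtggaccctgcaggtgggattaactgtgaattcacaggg
Sox2, 3915 bp downstream (chr3:34552913-34553033): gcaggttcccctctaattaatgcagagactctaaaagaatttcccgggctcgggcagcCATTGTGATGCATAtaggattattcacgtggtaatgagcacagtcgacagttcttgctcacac
Lrrtm3 intron (chr10:64207167-64207287): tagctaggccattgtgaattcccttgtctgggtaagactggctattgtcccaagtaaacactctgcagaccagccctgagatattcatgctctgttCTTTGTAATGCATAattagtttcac
Rgma intron (chr7:80545242-80545362): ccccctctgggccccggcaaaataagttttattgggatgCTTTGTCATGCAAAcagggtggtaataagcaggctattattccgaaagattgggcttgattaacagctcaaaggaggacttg

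The composite read along the minus strand at Nanog and along the plus strand at the other 3 sites. In the next 4 windows the capitals mark a POU core, ATGCAAA or ATGCTAA on either strand, at sites near Dppa3, Lifr, Il6st and Jarid2 where no composite was found. Dppa3 and Lifr each held a pair of POU cores within 60 bases of the summit.
Dppa3 (chr6:122574626-122574746): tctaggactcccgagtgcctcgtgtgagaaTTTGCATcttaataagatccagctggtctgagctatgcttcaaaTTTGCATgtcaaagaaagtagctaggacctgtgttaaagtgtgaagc
Lifr (chr15:7065811-7065931): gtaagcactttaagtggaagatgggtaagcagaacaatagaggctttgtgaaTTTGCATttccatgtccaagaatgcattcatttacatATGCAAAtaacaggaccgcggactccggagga
Il6st (chr13:113252720-113252840): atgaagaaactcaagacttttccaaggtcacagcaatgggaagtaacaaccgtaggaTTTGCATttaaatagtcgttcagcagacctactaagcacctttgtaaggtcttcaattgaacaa
Jarid2 (chr13:44800980-44801100): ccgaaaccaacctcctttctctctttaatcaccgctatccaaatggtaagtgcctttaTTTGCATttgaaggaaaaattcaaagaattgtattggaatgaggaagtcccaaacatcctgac

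In the last windows the capitals mark a SOX core, CATTGT or CTTTGT on either strand, at the Pou5f1 site and in an intron of Abca4, the site with the highest OCT4 fold enrichment of all members. The Abca4 window held 4 SOX cores, all on the minus strand, starting 51 and 10 bases before and 11 and 32 bases after the summit. The Zfp42 site is printed as one with none of the POU, SOX or composite spellings, so it carries no capitals.
Pou5f1 (chr17:35640934-35641054): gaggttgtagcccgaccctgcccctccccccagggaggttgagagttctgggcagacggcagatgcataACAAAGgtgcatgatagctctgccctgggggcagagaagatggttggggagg
Abca4 intron (chr3:121848439-121848559): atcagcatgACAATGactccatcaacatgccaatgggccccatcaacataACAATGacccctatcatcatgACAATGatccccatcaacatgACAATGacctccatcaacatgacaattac
Zfp42 (chr8:44406119-44406239): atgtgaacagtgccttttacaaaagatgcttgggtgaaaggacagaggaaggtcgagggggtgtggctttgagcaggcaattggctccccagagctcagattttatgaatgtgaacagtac

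Around all member summits, within 100 bp on either strand, a POU core was found at 1282 of 3604 sites (35.6%) and a SOX core at 2110 (58.5%). The octamer ATGCAAAT was found at 12.5% and its variant ATGCTAAT at 8.93%. Of the other 6084 OCT4 peaks present in both WT libraries, 36.3% held a POU core and 35.9% a SOX core, and 16.0% held the octamer. Members and other OCT4 peaks thus held POU cores at like shares, and members held SOX cores more often, also above the 46.3% of 29353 NANOG peaks of both WT libraries that overlapped neither an OCT4 nor a SOX2 peak (called NANOG-only below). The classes were drawn by SOX2 peaks, which all members and only 3 of the other OCT4 peaks had in both WT libraries. The difference in SOX cores is therefore a description of that choice. Positions 5000 bp from the member summits gave 6.35% for the POU core and 27.4% for the SOX core. The SOX core CATTGT was at 29.3% of members and CTTTGT at 41.2%, against 15.7% and 23.8% of other OCT4 peaks.

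The composite was found at 75 members (2.08%), at 0.575% of other OCT4 peaks, at 0.238% of NANOG-only peaks and at 0.0555% of positions 5000 bp away. In 69 of the 75 the SOX core and the POU letters were separated by 1 base. The POU letters were ATGCTAA at 26 sites, ATGCAAA at 19 and ATGCAGA at 15, and the SOX letters were CTTTGT at 39 and CATTGT at 36. The KLF motif, CACACCC or CACGCCC, was at 8.10% of members, 6.92% of other OCT4 peaks and 14.0% of NANOG-only peaks. The letters CCATTA, used as a NANOG-like motif, were at 12.7%, 11.05% and 13.7%, and the CTCF core AGGGGGC at 1.72%, 2.74% and 3.05%. These spellings overlap, since each octamer holds a POU core and a composite holds a SOX core. The median GC content of the windows was 42.8% for members, 43.3% for other OCT4 peaks and 46.8% for NANOG-only peaks. The motifs are a description of letters and carry no test. The composite shares are tied to the choice by SOX2 peaks as well, since the composite holds a SOX core.

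**Figure D1:**
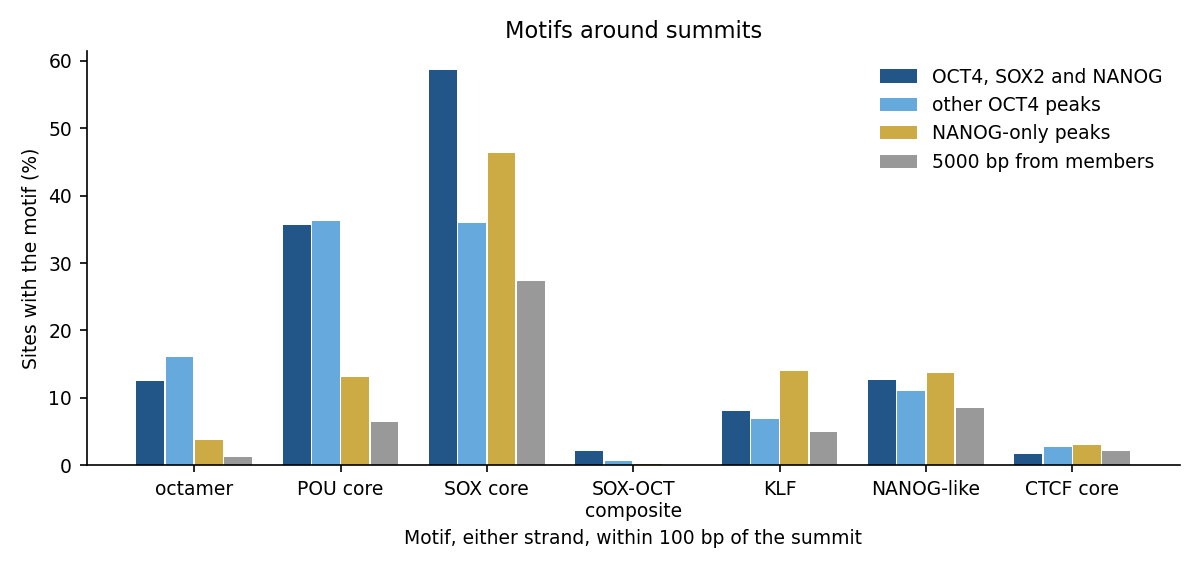
Share of sites (%) whose sequence within 100 bp of the summit held each motif on either strand, for members, other OCT4 peaks, NANOG-only peaks and positions 5000 bp from member summits. The SOX core bar of members stands at 58.5% against 35.9% for other OCT4 peaks, and the POU core bars of both stand at 35.6% and 36.3%. The rule chose members by SOX2 peaks, so the SOX core bars are a description.

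The members were chosen by the peak calls of the 6 WT lists of OCT4, SOX2 and NANOG, so the following WT levels are a description. Fold enrichment is the ChIP signal at the summit over the local background set from the input, as the peak caller gave it. OCT4 had a median fold enrichment over members of 14.5 and 15.4 in WT replicates 1 and 2, with quartiles of 9.70 and 24.2 in replicate 1 and a highest value of 1015. SOX2 had medians of 9.67 and 9.74, and NANOG of 32.0 and 31.9. Each exceeded the median of its whole list, which was 10.5 and 10.3 for OCT4, 7.16 and 7.08 for SOX2 and 7.90 and 7.76 for NANOG. NANOG set almost no limit to the rule: of the 3607 peaks that passed OCT4 and SOX2, 3 failed on NANOG. Of 963 OCT4 peaks that failed by a single condition, 354 lacked a SOX2 peak in replicate 1 and 419 in replicate 2, 188 lacked OCT4 in replicate 2 and 2 lacked NANOG in replicate 1. Those 963 had a median OCT4 fold enrichment of 9.90 in replicate 1. Just inside the threshold, the site at chr9:9027480-9027871 had an OCT4 fold enrichment of 17.2 and a lowest −log10 q of 2.07 over the 6 lists, and the site at chr14:121618609-121618844 an OCT4 fold enrichment of 3.71 and a lowest −log10 q of 2.39. Members were wider than other OCT4 peaks, with a median of 329 bp (194 to 1223) against 275 bp.

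The summits lay close together. Median distances from the OCT4 summit of WT replicate 1 were 9 to 14 bp for the other OCT4 libraries, 25 to 27 bp for SOX2 and 25 to 26 bp for NANOG, with WT and DKO libraries in the same range. Klf4 summits at members lay 39 to 41 bp away and CTCF summits 148 to 155 bp. Over the 3604 members, log2 fold enrichment correlated across sites at Pearson's r of 0.79 to 0.80 between SOX2 and NANOG, at 0.28 to 0.29 between OCT4 and SOX2 and at 0.22 to 0.23 between OCT4 and NANOG. These are across sites, not across samples, and carry no p. The sample labels do not say which ESC input served which factor. Replicates of 1 factor correlated at 0.97 for OCT4, 0.96 for NANOG and 0.90 for SOX2. The sites strong in SOX2 were therefore largely those strong in NANOG, while OCT4 ranked them differently.

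Nearly all members had peaks of the 3 factors in DKO cells, and for OCT4 so did the other OCT4 peaks, with 97.3% and 98.5% of 6084 called in the DKO replicates. OCT4 had a peak at 3593 and 3600 members in the DKO replicates, and at 3593 (99.7%, 95% Wilson interval 99.5 to 99.8%) in both. SOX2 had 3536 and 3559, with 3513 (97.5%) in both and 22 in neither. NANOG had 3601 and 3602, with 3601 in both and 2 in neither, and of the 29353 NANOG-only peaks 89.3% and 90.8% had a NANOG peak in the DKO replicates. No like class was set beside SOX2. All 3 factors were called in both DKO libraries at 3507 members (97.3%). The same rule run on the DKO lists selected 7795 of 26742 OCT4 peaks (29.1%), and 3508 members (97.3%) overlapped such a site, while 3501 of the 7795 (44.9%) overlapped a member. The DKO lists were longer, and when each list of a factor was held to the same number of top peaks, OCT4 was called in both DKO libraries at 93.2% of members and SOX2 at 90.1%. Intervals here cover counting error only.

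The 4 members with no OCT4 peak in either DKO library were an intergenic site near 2410141K09Rik, a site 500 bp downstream of the start of Csmd1, and intronic sites in C330021F23Rik and Ankfn1. Their WT OCT4 fold enrichment was low, from 4.22 to 6.87 in replicate 1. At Csmd1 (chr8:15984183-15984425) NANOG was 51.0 and 36.8 in WT and 9.28 and 9.96 in DKO. Ankfn1 (chr11:89497123-89497328) had no peak of OCT4, SOX2 or NANOG in either DKO library, and its WT NANOG values were 11.1 and 13.2. At the site near 2410141K09Rik (chr13:66515374-66515665) NANOG and SOX2 peaks were called in all 4 libraries, with NANOG at 32.0 and 29.0 in WT and 20.9 and 22.0 in DKO.

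OCT4 fold enrichment at members was 2.18 times as high in DKO, as a median. Median fold enrichment was 14.5 and 15.4 in the WT libraries and 31.4 and 34.5 in the DKO libraries, and the groups of libraries did not overlap. Over the 3593 members called in all 4 libraries the median log2 difference, DKO minus WT, was 1.12, with the central 90% of members between 0.40 and 1.79. SOX2 medians were 9.67 and 9.74 in WT and 12.8 and 13.6 in DKO, a median log2 difference of 0.39 (−0.56 to 1.36). NANOG medians were 32.0 and 31.9 in WT and 31.9 and 31.1 in DKO, a median log2 difference of −0.07 (−0.98 to 0.90). The mean was higher in DKO at 99.4% of members for OCT4, 75.0% for SOX2 and 45.4% for NANOG. ChIP on bulk cells does not tell a larger share of bound cells apart from more binding in each cell.

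OCT4 and SOX2 were higher in DKO over all their sites as well, not at members alone. Peaks of the 4 libraries of a factor were merged into sites, and sites called in all 4 were fitted with limma on log2 fold enrichment. Because the rule used the WT values, the counts over members are given without a test of their own. For OCT4, 86.3% of all 9434 sites were higher in DKO at an adjusted p under 0.05 (limma, Benjamini-Hochberg) and 0.382% lower, and the members gave 3403 higher and 3 lower of 3579 merged sites. For SOX2, 30.0% of 7694 sites were higher and 4.06% lower, against 1140 and 139 of 3516 member sites. For NANOG, 13.0% of 39762 sites were higher and 11.1% lower, against 461 and 599 of 3597 member sites. Leaving out 1 library moved the count of NANOG member sites past the threshold from 1060 to 649 without WT replicate 1, 232 without DKO replicate 1 and 220 without DKO replicate 2, and that of SOX2 from 1279 to 828 without DKO replicate 2. The median log2 difference over all sites was 0.93 for OCT4, 0.35 for SOX2 and 0.02 for NANOG, and over sites that were not members 0.80, 0.33 and 0.03. With each library centred on its own median, the member sites split into 932 higher and 298 lower for OCT4 and 427 higher and 457 lower for SOX2, with a median difference of 0.16 and −0.00397. Over all sites, centring left 16.0% higher and 20.0% lower for OCT4 and 10.7% higher and 13.1% lower for SOX2. Relative to all sites of the factor, members had a median slightly above 0 for OCT4 and near 0 for SOX2.

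For OCT4 the reads at the summits were more numerous in both DKO libraries, while the background of the genotypes overlapped. Fold enrichment and p together gave the reads piled at each summit and the background, and the pileups came out whole in every OCT4 library for peaks with a −log10 p under 40. At members the median pileup was 37 and 52 reads in WT and 74 and 102 in DKO, over a median background of 1.60 and 2.42 in WT and 1.31 and 1.94 in DKO. For SOX2 the pileup was 43 in both WT libraries and 65 in DKO replicate 1, over backgrounds of 3.21, 3.34 and 4.14. The part of sequencing depth in these differences was not tested.

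**Figure D2:**
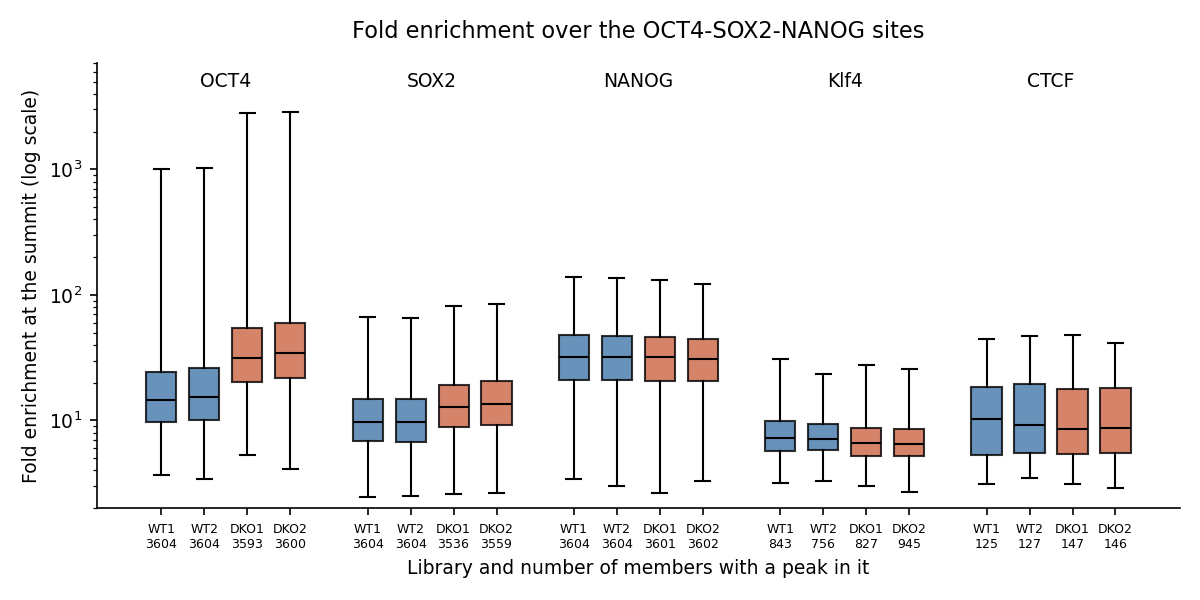
Fold enrichment at the summit (log scale) over members in each of the 20 ESC libraries, with the number of members that had a peak in it, by antibody and genotype. The OCT4 medians move from 14.5 and 15.4 in WT to 31.4 and 34.5 in DKO, while the NANOG medians stay between 31.1 and 32.0.

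The Abca4 site (chr3:121848183-121848878) had OCT4 fold enrichment of 1015 and 1016 in WT and 2809 and 2847 in DKO. No Klf4 peak lay there, and CTCF was called at 5.90 and 5.37 in WT and 7.01 and 6.49 in DKO. SOX2 there was 67.0 and 55.9 in WT and 79.4 and 75.6 in DKO, and NANOG 85.3 and 80.5 in WT and 95.3 and 69.0 in DKO. The OCT4 value stood far above the rest of the members, and the NANOG value did not. The next OCT4 site by level, an intergenic site with Diap3 as its nearest gene, had 284 and 290 in WT and 901 and 980 in DKO. Among the 10 members with the highest mean over the 6 WT lists, both DKO values of OCT4 were above both WT values at all 10, beside 91.2% of all OCT4 sites. NANOG was above both WT values in both DKO libraries at none of the 10 and below at 6, beside 33.9% and 31.4% of all NANOG sites and 34.6% and 43.5% of member sites. These 10 were picked by WT levels that include NANOG, so nothing is read from that count. At the intronic site of Tox, which encodes an HMG-box factor of T cells, NANOG was 96.1 and 93.8 in WT and 40.5 and 34.0 in DKO. At a site in Lats2, a kinase of the Hippo pathway, OCT4 was 177 and 197 in WT and 477 and 514 in DKO, and NANOG 120 and 117 against 88.7 and 80.2. At a site in Fat1, a large cadherin, OCT4 was 193 and 209 against 463 and 520, with NANOG at 93.6 and 94.7 against 91.6 and 85.03.

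Klf4 was not used by the rule. It had a peak at 843 (23.4%) and 756 (21.0%) members in the WT replicates and at 827 (22.9%) and 945 (26.2%) in the DKO replicates. The mean number was 799.5 ± 61.5 in WT and 886 ± 83.4 in DKO (SD, n = 2 libraries each), and the libraries of the genotypes overlapped. The exact two-sided permutation test gave p = 0.667, and 2 libraries against 2 cannot give less than 0.333. Of the members, 1266 (35.1%) had a Klf4 peak in at least 1 library, 506 in all 4 and 2338 in none.

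Klf4 peaks fell on members more often than on other OCT4 peaks or NANOG-only peaks. The 7795 sites that met the same rule in the DKO lists, 44.9% of which overlapped a member, were close to the members, with Klf4 peaks at 19.7% and 16.9% in the WT libraries and 19.1% and 21.7% in the DKO libraries. In the other classes the share was 2.30% and 1.66% in WT and 1.87% and 2.45% in DKO at other OCT4 peaks, and 5.67% and 3.86% in WT and 4.81% and 5.87% in DKO at NANOG-only peaks. In each of the 4 libraries the 95% Wilson interval of the members lay above those of both other classes, for example 22.0 to 24.8% in WT replicate 1. These intervals cover counting error over sites only, and the classes were not matched on peak width or level. CTCF showed no such order, with 3.47% and 3.52% of members in WT and 4.08% and 4.05% in DKO, against 3.90 to 4.31% of other OCT4 peaks and 3.66 to 4.08% of NANOG-only peaks.

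**Figure D3:**
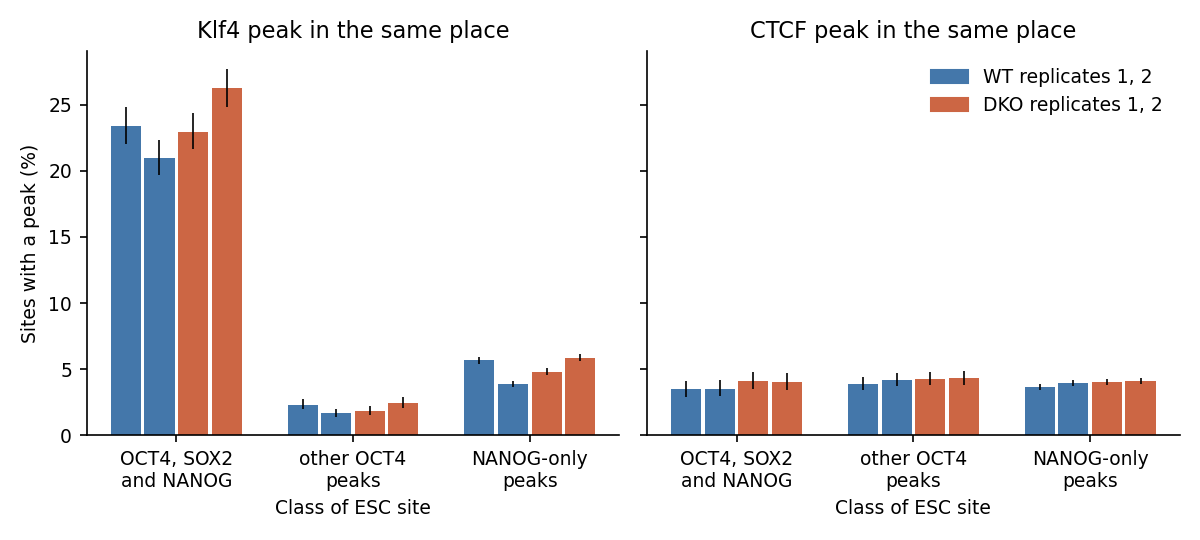
Share of sites (%) with a Klf4 peak (left) and a CTCF peak (right) in the same place, for members, other OCT4 peaks and NANOG-only peaks, 1 bar per library with 95% Wilson intervals. Klf4 stands at 21.0 to 26.2% of members in the 4 libraries and at 1.66 to 5.87% of the other classes, and CTCF at similar levels in the 3 classes.

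The Klf4 share was higher where NANOG was higher. With members ordered by WT NANOG fold enrichment and divided into 4 groups of 901, the share with a Klf4 peak was 10.99%, 20.3%, 29.0% and 33.3% from the lowest to the highest group in WT replicate 1. In DKO replicate 1 it was 11.2%, 17.5%, 27.5% and 35.5%, and the other 2 Klf4 libraries rose over the groups as well. In the same division by OCT4 fold enrichment the share in WT replicate 1 was 21.8%, 25.1%, 23.6% and 23.1%. A KLF motif within 100 bp of the OCT4 summit went with Klf4 peaks: of the 292 members that held it, 55.5% and 50.3% had a Klf4 peak in WT and 55.8% and 61.0% in DKO, against 20.6%, 18.4%, 20.05% and 23.2% of the 3312 without it. CTCF peaks lay at 6.45% of the 62 members with the CTCF core and 3.42% of the others in WT replicate 1, and in the other 3 libraries at 4.84% against 3.50%, 4.07% and 4.04%.

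Where Klf4 was called in all 4 libraries, few sites differed between genotypes. Sites without a peak in some library were outside this fit. Among members, 33 (0.916%) had a Klf4 peak in both WT libraries and no DKO library, and 63 (1.75%) the reverse. No like count was set beside these for all Klf4 sites. Of 2310 Klf4 sites, 1.43% were higher and 2.47% lower in DKO (adjusted p under 0.05, limma). Of 511 member sites, 4 (0.783%) were higher and 13 (2.54%) lower, with a median log2 difference of −0.16 against −0.08 over all sites. With libraries centred on their medians, 13 member sites (2.54%) were higher and 21 (4.11%) lower. All Klf4 sites gave 3.94% higher and 3.46% lower, shares near those of the members. The largest difference was 29143 bp from the start of Cd9, a tetraspanin of the cell surface (chr6:125383585-125384213), where Klf4 fold enrichment was 30.7 and 23.6 in WT and 9.11 and 8.92 in DKO, a log2 difference of −1.58 (SE 0.27, adjusted p = 0.0036, limma). Near Tjp1, a tight junction protein (chr7:72599024-72599545), it was 12.98 and 11.2 against 5.02 and 3.804 (−1.46, SE 0.27, adjusted p = 0.0058, limma). The sites near Zmiz1, Uso1, Rbfa, Tprg, Ezr, Slc6a6 and Zfp936 were lower too, by log2 differences of −1.26 to −1.12. The site near Zbtb44 (chr9:30826355-30826683) was higher, with 3.97 and 4.50 in WT and 8.71 and 9.36 in DKO (1.09, SE 0.26, adjusted p = 0.0252, limma). Cd9 and Tjp1 passed without each library in turn. Without DKO replicate 1, 8 member sites passed and Zmiz1, Uso1, Rbfa, Zfp936 and Zbtb44 did not, and without DKO replicate 2 again 8 passed and Tprg, Ezr, Slc6a6, Zfp936 and Zbtb44 did not. Without WT replicate 1, Ezr and Zbtb44 did not pass, and without WT replicate 2 a total of 37 sites passed. None of these 10 passed, with adjusted p of 0.162, when sites called in at least 2 libraries entered with missing values set low. Over all alternatives the adjusted p of Cd9 ran from 0.000115 to 0.162 and that of Zbtb44 from 0.0069 to 0.162 (limma).

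**Figure D4:**
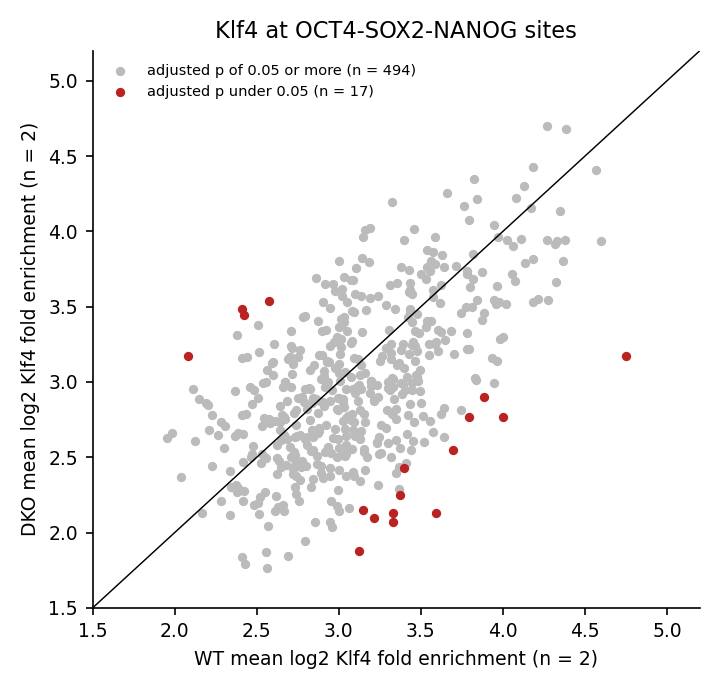
Mean log2 Klf4 fold enrichment in WT (x axis, n = 2) against DKO (y axis, n = 2) at the 511 member sites called in all 4 libraries, with the line of equality. The 17 sites with an adjusted p under 0.05 are in red, 13 below the line and 4 above it.

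CTCF overlapped few members, 125 and 127 in WT and 147 and 146 in DKO, and 99 in all 4 libraries. Both DKO counts were above both WT counts, and the exact two-sided permutation test gave p = 0.333, the smallest that 2 against 2 libraries allow. The counts were ordered alike at other OCT4 peaks, with 237 and 256 in WT and 260 and 262 in DKO, and at NANOG-only peaks, with 1075 and 1153 against 1185 and 1198. Of all 56473 CTCF sites, 23.1% were higher and 20.8% lower in DKO (adjusted p under 0.05, limma), and of 110 member sites 26 (23.6%) and 15 (13.6%). Near Ppm1a, a protein phosphatase (chr12:73835217-73835439), CTCF fold enrichment was 12.5 and 10.1 in WT and 3.48 and 3.86 in DKO (log2 difference −1.62, SE 0.14, adjusted p = 0.0023, limma). Near Ifitm2, an interferon-induced membrane protein (chr7:148145059-148145422), it was 8.63 and 8.99 against 20.7 and 18.6 (1.158, SE 0.11, adjusted p = 0.0025, limma). Near Parvb, a parvin of focal adhesions, it was 29.4 and 33.7 against 14.4 and 14.2 (−1.14). The sites near Tssc1, Gpc4, Cntn3, Spns3, Fam110b and Ssr2 were higher in DKO, by 1.13 to 1.33, and that near Olfr1431 lower, at −1.09. Without WT replicate 1, 22 member sites passed and Fam110b and Olfr1431 did not, and without WT replicate 2, DKO replicate 1 or DKO replicate 2 it was 26, 29 and 25, with Olfr1431 lost again without DKO replicate 1.

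Members lay far from genes more often than at their starts. Within 1000 bp of a protein-coding start lay 133 members (3.69%), against 7.56% of other OCT4 peaks and 9.23% of NANOG-only peaks. Introns held 1274 (35.3%), exons 48 (1.33%) and the space between genes 2149 (59.6%). The median distance to a start was 28732 bp. A total of 2258 members lay within 50000 bp of the start of 1931 genes, which is 8.68% of the 22238 protein-coding genes of the annotation. Of these genes 274 had at least 2 members and 43 at least 3. Etl4, Etv5, an ETS factor of ESCs, and Jarid2, a partner of the Polycomb complex PRC2, had 5 each. Levels of the 3 factors were alike at promoters and elsewhere, with OCT4 medians of 16.8 and 16.3 at promoters and 14.3 and 15.3 between genes in WT. Klf4 peaks were at 36.1% and 33.1% of the promoter members in WT and 33.1% and 39.1% in DKO.

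Most genes of the core and naive lists had members close by. Of 7 lists, the core factors had a member within 50000 bp at 3 of 3 genes, the naive network at 16 of 19, signalling genes at 8 of 14 and chromatin genes at 7 of 12. Early lineage genes had one at 2 of 10, Pax6 and Otx2, B cell genes at 1 of 8, Ebf1, and fibroblast genes at 0 of 8. Among all protein-coding genes the share was 8.68%. Other OCT4 peaks of both WT libraries lay as close to 1 of 3 core, 5 of 19 naive, 9 of 14 signalling and 6 of 12 chromatin genes. They did so at 4 of 10 early lineage, 2 of 8 fibroblast and 0 of 8 B cell genes. For signalling and chromatin genes, members and other OCT4 peaks thus stood at like counts. These are descriptions of lists, not tests. The genes without a member within that distance were Klf4, Tcl1 and Stat3 in the naive network, Fgf4, Nodal, Spry4, Dusp6, Socs3 and Bmp4 in signalling, and Dnmt3a, Dnmt3b, Dnmt3l, Trim28 and Lin28a in the chromatin list. For each of the 37 genes with a member, the strongest one is described below, and OCT4 was called in all 4 libraries at 36 of them. OCT4 was above both WT values in both DKO libraries at 35 of the 37, beside 91.2% of all OCT4 sites. NANOG was above at 8 and below at 21, beside 33.9% and 31.4% of all NANOG sites and 34.6% and 43.5% of member sites. The named sites were picked by WT levels that include NANOG, so nothing is read from that count. Centring the OCT4 libraries removed a DKO to WT ratio of 1.95, and of the 36 sites 26 stood above that ratio. The other 10, at Id1, Rif1, Ebf1, Zfp281, Il6st, Nr5a2, Nanog (4892 bp upstream), Lefty1, Nr0b1 and Pax6, were higher in DKO as deposited by ratios of 1.02 to 1.94 and lower after centring.

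**Figure D5:**
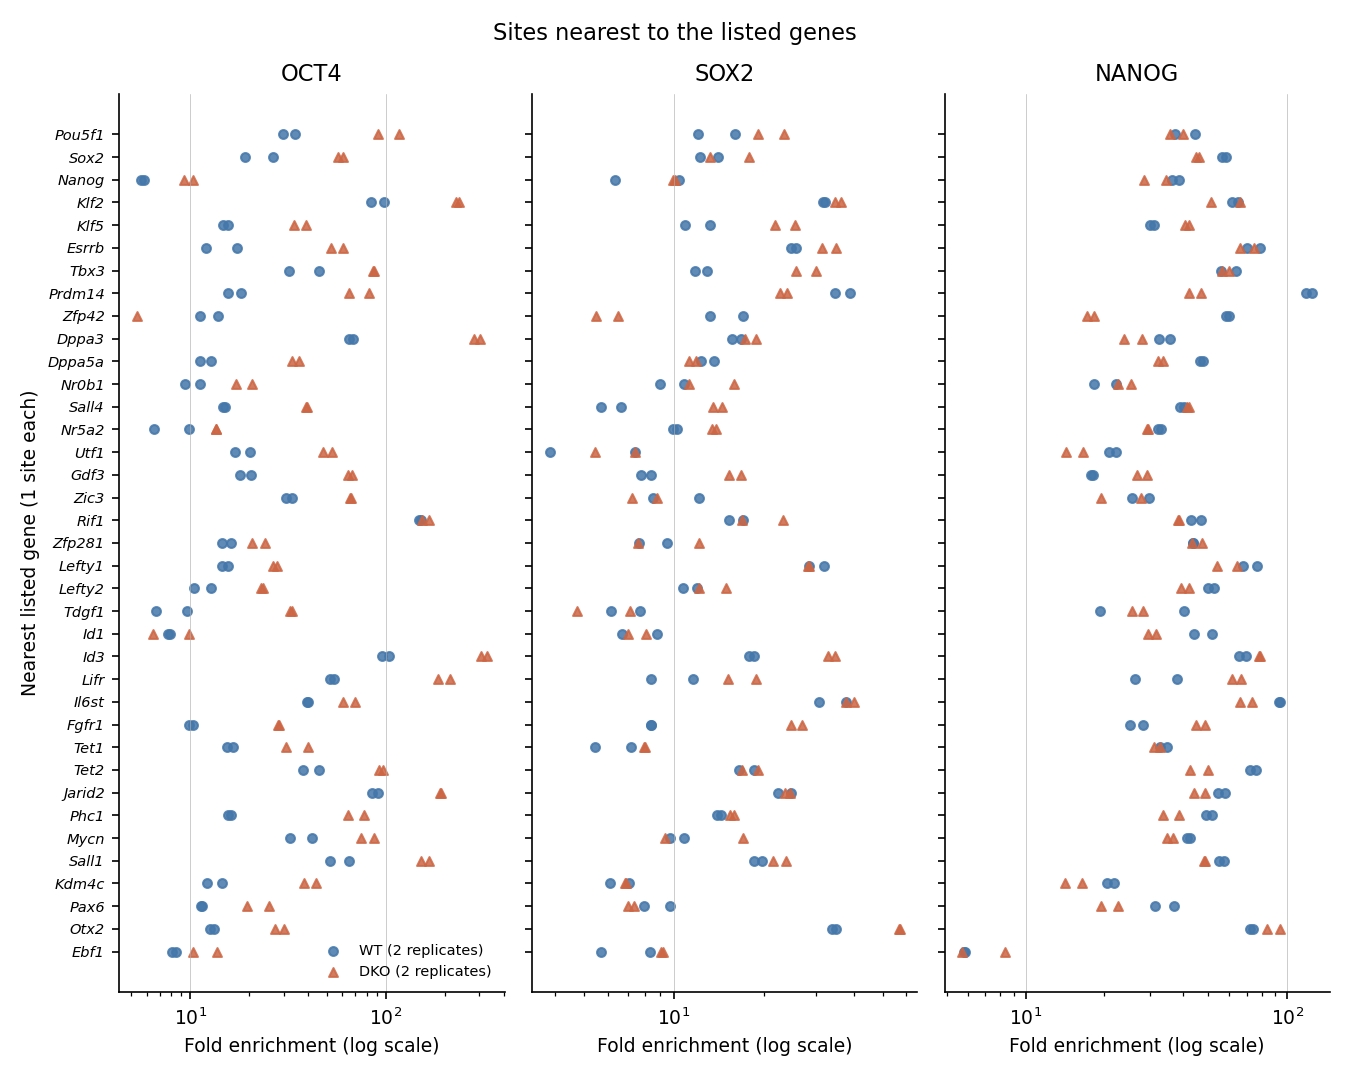
OCT4, SOX2 and NANOG fold enrichment (log scale) at the strongest member nearest to each of 37 listed genes, with both WT and both DKO replicates as points. The OCT4 points of DKO lie to the right of those of WT at 35 genes before any centring, and the NANOG points overlap or lie on either side.

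At the genes of the core factors, 1 site lay 1988 bp upstream of Pou5f1 (chr17:35640862-35641153), where OCT4 was 34.5 and 29.7 in WT and 90.8 and 117 in DKO. SOX2 there was 16.0 and 12.02 against 19.2 and 23.4, NANOG 44.6 and 37.4 against 39.8 and 35.6, and Klf4 18.7 and 16.6 against 13.2 and 14.6. OCT4 was thus higher in both DKO libraries and Klf4 lower, while the NANOG libraries overlapped. The Nanog promoter site 77 bp upstream of the start, printed above with its composite, had OCT4 at 11.7 and 13.3 in WT and 41.8 and 40.3 in DKO, with NANOG at 11.8 and 11.1 against 16.5 and 15.4. A second site 4892 bp upstream (chr6:122652470-122652711) had OCT4 at only 5.83 and 5.57 against 10.3 and 9.33, and Klf4 at 21.2 and 19.1 against 16.2 and 14.5. OCT4 as deposited was higher in both DKO libraries at each of these 3 sites, and the site 4892 bp upstream of Nanog turned lower after centring.

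Sox2 had 3 members within 50000 bp. At the one 3590 bp upstream (chr3:34545140-34545518) OCT4 was 19.1 and 26.5 in WT and 56.8 and 60.1 in DKO, and NANOG 58.6 and 56.1 against 45.9 and 44.7. At the composite site 3915 bp downstream (chr3:34552840-34553226) OCT4 was 56.5 and 58.9 against 110 and 135, SOX2 8.51 and 8.59 against 22.6 and 19.6 and NANOG 19.7 and 16.1 against 35.6 and 29.5. NANOG thus differed in opposite directions at these neighbouring sites. A further cluster of 3 members lay 95361 to 107940 bp downstream (chr3:34644266-34657151), and at the last of them OCT4 was 44.2 and 46.7 in WT and 124.5 and 128 in DKO.

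In the naive network, the transcription factors and markers of the ground state of ESCs, OCT4 as deposited was higher in both DKO libraries at every named site but Zfp42, with ratios that differed widely. At Dppa3, a maternal factor expressed in naive ESCs and germ cells, OCT4 was 65.1 and 67.7 in WT and 284 and 305 in DKO, with SOX2 at 15.6 and 16.7 against 17.3 and 18.8. At Prdm14, a repressor of FGF signalling and DNA methylation genes, OCT4 was 15.7 and 18.1 against 65.0 and 81.7 while SOX2 was 34.6 and 38.8 against 23.9 and 22.7 and NANOG 125 and 118 against 46.7 and 42.1. Esrrb, an orphan nuclear receptor of the network, had OCT4 at 11.97 and 17.3 against 52.6 and 60.3, with NANOG at 78.7 and 69.9 against 74.4 and 65.8. Prdm14 and Esrrb thus had similar OCT4 differences and unlike NANOG ones. At Klf2, a Klf4 relative, OCT4 was 83.8 and 97.5 against 236 and 228, and Klf4 7.91 and 8.997 against 11.8 and 13.8. At Tbx3, a T-box factor, OCT4 was 31.9 and 45.6 against 87.2 and 86.0, and SOX2 12.9 and 11.8 against 29.9 and 25.7.

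Differences were smaller or reversed at some sites of the network. At Rif1, which protects telomeres and times replication, OCT4 was 148 and 152 in WT and 154 and 166 in DKO, so that the genotypes stood close together. At Zfp42, which encodes the ESC marker REX1, OCT4 was 11.3 and 13.8 in WT, without a peak in DKO replicate 1 and at 5.34 in replicate 2. SOX2 at Zfp42 was 17.1 and 13.2 against 5.47 and 6.47, and NANOG 58.5 and 59.8 against 18.2 and 17.2. Klf4 was still called there in all 4 libraries, at 12.1 and 9.69 against 6.15 and 8.50. OCT4, SOX2, NANOG and Klf4 were thus all lower or without a peak in DKO at Zfp42. At Nr5a2, a nuclear receptor that maintains Pou5f1 expression, the promoter site had OCT4 at 6.54 and 9.82 against 13.5 and 13.6 and Klf4 at 22.6 and 18.8 against 15.6 and 12.5.

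Among signalling genes, Lifr and Il6st encode the 2 chains of the receptor for leukaemia inhibitory factor, the cytokine that keeps mouse ESCs undifferentiated. At Lifr (chr15:7065657-7066214) OCT4 was 54.4 and 52.0 in WT and 186 and 213 in DKO, SOX2 8.38 and 11.6 against 18.8 and 15.2 and NANOG 26.2 and 37.9 against 61.3 and 66.7. At Il6st (chr13:113252573-113253255) OCT4 was 39.3 and 40.1 against 60.4 and 69.2 and NANOG 93.6 and 92.7 against 73.6 and 66.1. OCT4 was thus higher in DKO at both chains as deposited, with Il6st turning lower after centring, and NANOG differed in opposite directions. Id3, an inhibitor of differentiation downstream of BMP, had OCT4 at 104 and 95.5 against 306 and 329. Its relative Id1 had OCT4 at 7.70 and 7.89 against 6.47 and 9.82, where the genotypes overlapped. Fgfr1, an FGF receptor, had a promoter site with OCT4 at 10.3 and 9.80 against 27.9 and 28.5, SOX2 at 8.37 and 8.37 against 24.6 and 26.8 and NANOG at 28.1 and 25.1 against 48.7 and 44.8.

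Among chromatin and transcription regulators, Phc1, a Polycomb protein, had OCT4 at 16.2 and 15.5 in WT and 63.9 and 77.5 in DKO, the highest ratio of the named sites at 4.44. At Jarid2 OCT4 was 91.3 and 84.8 against 189 and 193, at Sall1, a zinc finger factor, 51.6 and 64.9 against 151.3 and 166, and at Tet2, which oxidises methylated cytosine, 37.7 and 45.7 against 92.0 and 97.1. NANOG at Tet2 was 76.0 and 72.0 against 49.7 and 42.6. Outside the network, the promoter site of Otx2, a factor of the primed state and of forebrain, had OCT4 at 12.6 and 13.3 against 30.3 and 27.2 and SOX2 at 34.8 and 33.8 against 57.0 and 56.7. The Ebf1 site, 48002 bp from the start of this B cell factor, was weak, with NANOG at 5.87 and 5.80 against 5.72 and 8.36.

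The members seldom formed clusters. Joining members whose summits lay within 12.5 kb of the next placed 386 (10.7%) in 186 clusters, of which 13 had at least 3 members and the largest 4. A member lay within 12.5 kb of 8.68% of other OCT4 peaks and 9.09% of NANOG-only peaks, close to the share of members. Another OCT4 peak of WT replicate 1 lay within 12.5 kb of 25.1% of members, against 20.3% of other OCT4 peaks and 20.1% of NANOG-only peaks. The cluster of 4 lay at Etv5 (chr16:22402673-22413233), with median OCT4 of 10.8 and 10.5 in WT and 23.4 and 26.6 in DKO. A cluster of 3 with Klf4 as its nearest gene, 54197 bp or more away (chr4:55477070-55490643), had median OCT4 of 32.9 and 30.3 against 109 and 122, and NANOG of 64.6 and 60.7 against 56.6 and 50.4. The other named clusters, of 3 each, had as their nearest genes Sox2, at 95361 bp or more, Myst4, a histone acetyltransferase gene, at 13485 bp or more, and Dclk2, a kinase gene, at 75133 bp or more. Klf4 peaks were more frequent at clustered members, 31.3% and 25.9% in WT and 30.1% and 32.9% in DKO, than at the 3218 that stood alone, 22.4% and 20.4% in WT and 22.1% and 25.4% in DKO. Fold enrichment of OCT4 in WT was alike, with medians of 14.8 and 15.8 in clusters and 14.4 and 15.3 alone.

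POU cores and octamers were more frequent at the members with higher OCT4. In 4 groups of 901 members from the lowest to the highest OCT4 fold enrichment, the share with a POU core was 26.9%, 33.5%, 34.6% and 47.3%, the share with an octamer 8.66%, 9.21%, 11.9% and 20.4%, and the share with a SOX core 62.9%, 60.9%, 54.7% and 55.6%. The 75 composite sites had median OCT4 of 17.3 and 17.99 in WT, the 1230 sites with a POU core but no composite 16.9 and 18.2, the 1440 with a SOX core only 13.01 and 13.8, and the 859 with none of them 14.4 and 15.1. SOX2 medians in WT replicate 1 were 9.89, 9.43, 10.7 and 8.76 in the same order. The median log2 OCT4 difference, DKO minus WT, was 1.13, 1.14, 1.12 and 1.11 in these classes. Of the 37 named genes, 14 sites held a SOX core only, 12 a POU core without a composite and 11 none of them.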

How the data were processed

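Sites bound by OCT4, SOX2 and NANOG were taken from the ChIP-seq peak lists of 20 ESC libraries (5 antibodies, 2 genotypes, 2 replicates), called by the authors for each library against input. Cells were formaldehyde-fixed and libraries sequenced on Illumina NextSeq or HiSeq instruments. The submitters' processing notes name bcl2fastq 1.8.4, cutadapt 1.16, BWA 07.17, MACS2 2.1.1.20160309 and mm9, and blacklisted regions were removed. The deposited lists give for each peak a fold enrichment, a ratio of ChIP signal to local background at the summit, and −log10 p and −log10 q values. Read totals are not in the lists, so fold enrichment carries no further correction for depth, and libraries differ in the precision of low values. Whole-read pileups were recovered from fold enrichment and p, within 0.02 of a whole number, for OCT4, Klf4 and the SOX2 libraries other than DKO replicate 2.

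Members and gene lists were chosen with earlier results of these data known. A factor was counted at a member where its peak overlapped by at least 1 bp, and the highest fold enrichment was taken. For DKO against WT, peaks of 4 libraries were merged and sites called in all 4 fitted on log2 fold enrichment without a pseudocount (limma 3.58.1 in R 4.3.3, Benjamini-Hochberg adjustment over all sites of the factor, threshold 0.05). This fit was tested on simulated data. Numbers of members with a peak were compared by an exact permutation test. The design of the study's own differential analysis needs reads and was not used. Genes are the nearest protein-coding starts of GENCODE on the same build, promoters within 1000 bp, clusters at 12.5 kb, and motifs within 100 bp of the summit read from the mm9 genome (Python 3.11.15, pysam 0.24.0, scipy 1.17.1). Tfcp2l1 and Sox1 were not in the annotation under these names. Named sites were, by rule, the strongest member nearest each listed gene, the 10 highest members, the 5 largest clusters, up to 10 Klf4 and CTCF sites past the threshold and the highest members without OCT4 in DKO. The other core-gene sites, the composite sites and the Diap3 site by OCT4 level were added after their values were seen. Lists of fibroblasts and resting B cells were used only for the shares in the closing section. The 8 input samples have no list and were not used.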

Additional observations from a re-analysis of the deposited data

How the results depend on the processing

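The number of members ranged from 3018 to 4498 over the other overlap rules, thresholds, base lists and left-out replicates. Requiring summits within 100 bp gave peaks in both DKO libraries at 96.0% of members for OCT4, 89.1% for SOX2, 90.9% for NANOG and 14.3% for Klf4, and in both WT libraries at 12.8% for Klf4. Equal numbers of top peaks gave 93.2% for OCT4, 90.1% for SOX2 and 14.8% for Klf4. Asking for a peak in the remaining replicate alone gave 99.7 to 99.9% for OCT4, 98.1 to 98.8% for SOX2, 22.9 to 26.2% for Klf4 in DKO and 21.0 to 23.4% in WT. Centring each library gave 1230 of 3579 OCT4 member sites past the threshold, beside 3394 of all 9434, with a member median of 0.16. It gave a SOX2 member median of −0.00397 and 34 of 511 Klf4 member sites, beside 171 of all 2310. For Klf4, a q of at most 0.0001 gave 26 of 486 member sites, beside 103 of all 2170. With sites of at least 2 libraries limma gave 0 of 905 member sites and 0 of all 5349. At an unadjusted p under 0.05 it gave 183 and 1130 (limma). Leaving out replicates gave 8 to 37 sites for Klf4, lowest without DKO replicate 1 or 2 and highest without WT replicate 2, 22 to 29 for CTCF, 828 to 1037 for SOX2 and 220 to 713 for NANOG, and a trended prior variance 1823 for NANOG. The 1823 sites of the trended fit were of 3597 NANOG member sites, beside 11862 of all 39762 NANOG sites. Where 1 sample was left in a genotype, it was assumed to vary like the others. The cause was not tested. Clusters held 5.72% of members at 5000 bp and 16.5% at 25000 bp, promoters 9.24% at 2500 bp and 4.66% with all transcripts, and the octamer 9.88% at 50 bp and 13.8% at 200 bp. For the 10 named Klf4 and 10 named CTCF sites, 153 values over the alternatives kept their side of the threshold, 25 lost it and 0 changed sign.

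Replicate numbers were shared between genotypes, but deviations of same-numbered libraries correlated at −0.003 to 0.022 over all sites, so with 2 pairs the numbers were not taken to pair samples. The fit with the replicate block gave 3448 of 3579 member sites for OCT4, beside 8393 of all 9434 sites. For SOX2 it gave 1332 of 3516 beside 2778 of 7694, and for NANOG 923 of 3597 beside 8795 of 39762. For Klf4 it gave 22 of 511 beside 109 of 2310, and for CTCF 38 of 110 beside 23479 of 56473.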

Other observations

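On chromosome X 121 of 278 OCT4 peaks of WT replicate 1 were members (43.5%), while the other chromosomes with at least 100 such peaks ranged from 29.6% to 35.4%. The difference was not tested.

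In fibroblasts, H3K27ac peaks overlapped 6.02 to 6.47% of the ESC members over the 4 libraries, against 8.32 to 8.73% of other OCT4 peaks and 11.9 to 12.4% of NANOG-only peaks. In resting B cells, peaks of Oct2, a POU factor that reads the same octamer, overlapped 1 member in WT replicate 1 and none in the other 3 libraries, against 9 and 8 of 6084 other OCT4 peaks and 4 and 4 of 29353 NANOG-only peaks in WT.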
